A study of Mus musculus with 11 samples.

Results

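The stably transfected line HT22[TR/TO-Klf9], here TR/TO-Klf9, was compared with its parent line HT22 after vehicle only, so that the difference measured is the one present before any doxycycline is added. HT22 is an immortalised mouse hippocampal line, and TR/TO-Klf9 carries a tetracycline repressor plasmid (pCDNA6:TR) and a plasmid from which doxycycline induces the transcription factor Klf9 (pCDNA4:TO-Klf9). The comparison used 5 of the 11 samples of the series: TR/TO-Klf9 vehicle 1 and 2 against parent vehicle 1, 2 and 3, all given DMSO for 8 hours. The doxycycline libraries of both lines, which serve as a second look, were labelled as given 0.5 µg/ml doxycycline for 8 hours. The sample labelled TR/TO-Klf9 vehicle 3 held the same count in every row as the one labelled TR/TO-Klf9 doxycycline 1, so this 1 library, called the identical library, was left out of the test and its values are given apart. TR/TO-Klf9 cells were kept in zeocin and blasticidin, and the labels name no selection for the parent line. The labels do not say whether TR/TO-Klf9 is 1 clone, nor whether its libraries come from different cultures. The p-values therefore reflect a spread among libraries that may be technical. That spread was estimated from 9 libraries together: the 5 compared, TR/TO-Klf9 doxycycline 2 and parent doxycycline 1, 2 and 3. The line, its plasmids, its drug selection and its time in culture cannot be told apart.

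A line derived by transfection and drug selection descends from few founder cells. Such lines are known to part from their parent in 2 ways: whole chromosomes or segments are gained or lost, which shifts many neighbouring genes by a little, and single genes become silent or active, which moves 1 gene by a lot. RNA counts measure neither DNA copies nor chromatin, so both kinds are described here as differences in RNA.

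Klf9 itself had 48.4 and 43.8 CPM in TR/TO-Klf9 vehicle 1 and 2 and 45.8 CPM in the identical library, against 41.5, 36.2 and 38.0 CPM in parent vehicle 1, 2 and 3. TR/TO-Klf9 doxycycline 2 had 102 CPM, so for Klf9 the identical library lay between the 2 TR/TO-Klf9 vehicle libraries. CPM are counts per 1000000 counts of a library, scaled for library composition (TMM). The vehicle groups did not overlap, and Klf9 was higher in TR/TO-Klf9 by 0.25 ± 0.07 on the log2 scale (SE, adjusted p = 0.0111, edgeR's quasi-likelihood test with Benjamini-Hochberg adjustment, the test used throughout). With TR/TO-Klf9 vehicle 1 left out, which leaves 1 TR/TO-Klf9 vehicle library, the difference was 0.18. It was also 0.18, and did not pass (adjusted p = 0.0656), with the shift shared by neighbouring genes on chromosome 19 removed. Reads of the plasmid and of the endogenous gene were not told apart.

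TR/TO-Klf9 vehicle 1 stood apart from the other libraries at several genes. Taking 5 CPM or more and at least 4-fold above all other libraries, a rule chosen after the values were seen, 7 genes were found in TR/TO-Klf9 vehicle 1 and 0 in each of the other 9 libraries. The stress-inducible chaperone gene Hspa1b had 104 CPM there, against 10.3 CPM in TR/TO-Klf9 vehicle 2, 9.89 CPM in the identical library and a mean of 9.005 CPM in parent vehicle libraries. The ATP-gated channel gene P2rx7 had 60.7 CPM in TR/TO-Klf9 vehicle 1 and at most 1.22 CPM in any other library. The median absolute log2 difference between TR/TO-Klf9 vehicle 1 and 2 was 0.114 over 11049 genes at 5 CPM or more, and that between TR/TO-Klf9 vehicle 2 and the identical library was 0.0656. Parent vehicle 1 also lay further off, at 0.0962 from parent vehicle 2 and 0.0716 from parent vehicle 3, which were 0.0642 apart. Counts of calls are therefore also given without TR/TO-Klf9 vehicle 1. That leaves 1 TR/TO-Klf9 vehicle library, whose spread is taken from the other groups. For calls lost there, the removal of that library and the smaller number of libraries cannot be told apart. Total counts ranged from 10302431 to 18902784 per library.

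The lines differed at a large part of the transcriptome. Of 13536 genes tested, 5274 (39%) passed an adjusted p of 0.05, of which 2424 (17.9%) were higher and 2850 (21.1%) lower in TR/TO-Klf9. The vehicle groups did not overlap for 7443 genes (55%). Most of the called differences were small, as 843 genes (6.23%) were both called and at least 2-fold apart, 431 higher (3.18%) and 412 lower (3.04%). Without TR/TO-Klf9 vehicle 1, 2133 genes were higher and 2409 lower, and the 2-fold counts were 269 higher and 410 lower. Thus leaving out that library lowered the number of 2-fold rises and hardly changed the number of 2-fold falls.

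The large differences were unequal in direction once faint genes were set aside. Among genes at 5 CPM or more in the line where they were higher, 106 were at least 2-fold higher in TR/TO-Klf9 and 195 at least 2-fold lower. At 4-fold the numbers were 20 higher and 78 lower, at 8-fold 6 higher and 56 lower, at 16-fold 2 higher and 35 lower, and at 64-fold 1 higher and 13 lower. Of the 106 rises and 195 falls, 90 and 167 were also called and 2-fold without TR/TO-Klf9 vehicle 1. Genes under 5 CPM held 325 of the 431 2-fold rises and 217 of the 412 2-fold falls. Among rises between 1 and 5 CPM, TR/TO-Klf9 vehicle 1 was above vehicle 2 for 74.7%, against 61.8% of all genes tested in that range, and under 1 CPM for 80.7%, against 67.7%.

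**Figure D1:**
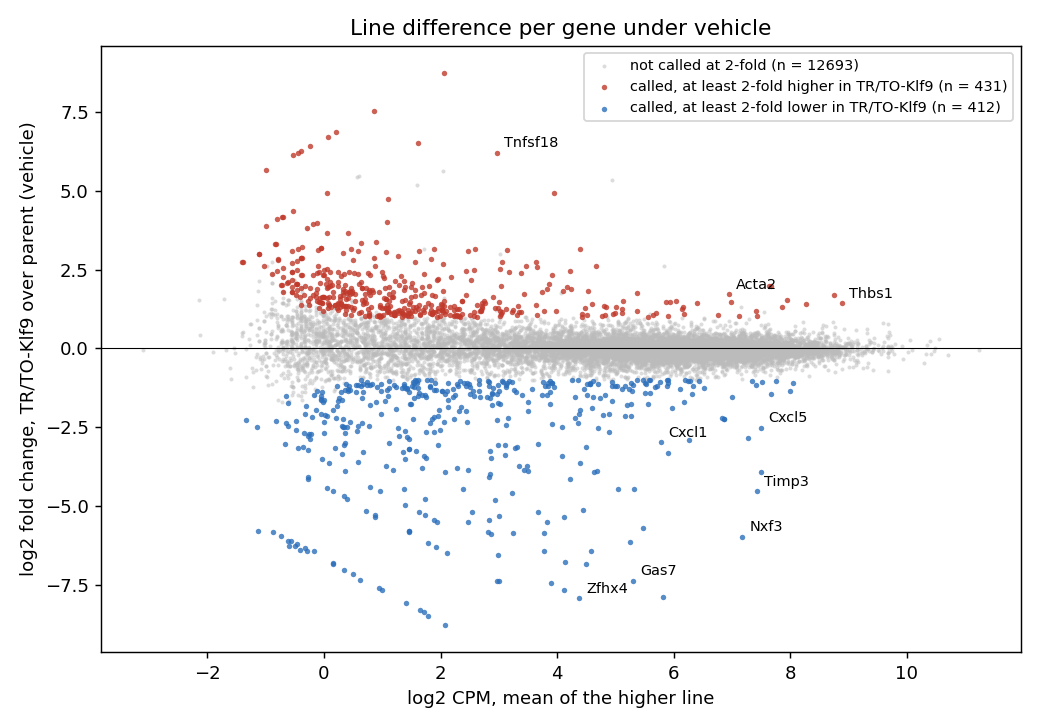
Log2 fold change of TR/TO-Klf9 over parent under vehicle (vertical axis) against the log2 of the mean CPM in the line where the gene was higher (horizontal axis), 1 point per tested gene, with 431 genes called at least 2-fold higher in red and 412 called at least 2-fold lower in blue. To the right, where genes are abundant, blue points reach far lower than red points reach high; straight rows of points at the left are genes with 0 counts in 1 line.

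The largest gain among genes at 5 CPM or more was a gene nearly absent from parent cells. Tnfsf18, the ligand of the T cell receptor GITR, had 7.14 and 8.49 CPM in TR/TO-Klf9 vehicle 1 and 2 and 7.33 CPM in the identical library, against 0.0520, 0 and 0.241 CPM in parent vehicle 1, 2 and 3. It held 207 counts over the TR/TO-Klf9 libraries and 4 over the parent libraries, a ratio of 81.8 (95% counting interval 31.5 to 303, which covers counting error only). It was the 1 gene at 5 CPM or more that was called at least 64-fold higher.

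Several further gains were genes best known from blood and immune cells, a grouping made after the values were seen. Lcp1, the leukocyte actin bundler L-plastin, stood at log2 3.15 ± 0.33 (SE), the common gamma chain of interleukin receptors Il2rg at 3.08 ± 0.28, the CSF1 receptor Csf1r at 2.74 ± 0.20 and the immune receptor Cd300lb at 2.58 ± 0.15. Csf1r, for example, had 13.4 and 11.4 CPM in TR/TO-Klf9 vehicle 1 and 2, against 2.23, 0.991 and 2.01 CPM in parent vehicle 1, 2 and 3. Other genes of this kind fell, among them Il1rl1 (−2.86 ± 0.17 SE) and Gimap6 (−1.56 ± 0.24 SE). Of the 4 tested markers of microglia and immune cells, Csf1r and Aif1 (1.39 ± 0.48) were higher, Cd14 was lower (−0.30 ± 0.11) and Cd68 did not pass (0.02 ± 0.20). Without TR/TO-Klf9 vehicle 1, Csf1r alone was called of 3 tested. The list summed to 35.7 and 34.9 CPM in TR/TO-Klf9 vehicle 1 and 2, against 28.2, 26.4 and 29.7 CPM in parent vehicle 1, 2 and 3. In bulk RNA, more cells of a type and more RNA per cell cannot be told apart.

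Other large gains were of varied kinds. Hydin, a protein of the central pair of motile cilia, had 27.3 and 14.99 CPM in TR/TO-Klf9 vehicle 1 and 2, against 2.13, 2.77 and 2.25 CPM in parent vehicle 1, 2 and 3 (3.17 ± 0.31 SE). The membrane peptidase neprilysin, Mme, stood at 2.75 ± 0.22, the metalloproteinase gene Adamts20 at 2.63 ± 0.18, Klhl30 at 3.13 ± 0.22, the protease inhibitor gene Serpinb9b at 2.62 ± 0.19, the glutamate receptor delta subunit Grid1 at 2.52 ± 0.19, the Ras activator Rasgrp3 at 2.46 ± 0.16 and the hormone Fgf21 at 2.46 ± 0.37. Each of these kept its call without TR/TO-Klf9 vehicle 1. Gipc2 did not: it had 10.2 CPM in TR/TO-Klf9 vehicle 1, 1.70 CPM in TR/TO-Klf9 vehicle 2 and 1.62 CPM in the identical library, against 0.883, 0.793 and 1.45 CPM in parent vehicle 1, 2 and 3, and its difference of 2.50 ± 0.79 (adjusted p = 0.0478) was 0.73 (adjusted p = 0.158) without that library.

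At 5 CPM or more the largest losses were deeper than the largest gains. Gas7, growth arrest-specific 7, which is expressed in neurons, had 0.311 and 0.148 CPM in TR/TO-Klf9 vehicle 1 and 2 and 0 in the identical library, against 40.3, 37.1 and 40.6 CPM in parent vehicle 1, 2 and 3. Its 6 counts against 1654 gave a parent over TR/TO-Klf9 ratio of 174 (95% counting interval 79.9 to 476), and the fitted log2 difference was −7.38 ± 0.20 (SE). For Gas7 the 3 parent libraries lay close together.

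Other near-silent genes in TR/TO-Klf9 included receptors, secreted proteins and chromatin regulators. The zinc finger homeobox gene Zfhx4 had 2 counts against 879, a parent over TR/TO-Klf9 ratio of 278 (76.7 to 2299). The death receptor gene Tnfrsf21 had 1 count against 333 (ratio 211, 37.5 to 8345) and the semaphorin co-receptor Plxna4 had 2 against 343 (108, 29.8 to 899). The sphingosine-1-phosphate receptor S1pr3 had 0.311 and 0.221 CPM in TR/TO-Klf9 vehicle 1 and 2, against 24.9, 24.1 and 22.4 CPM in parent vehicle 1, 2 and 3 (log2 −6.44 ± 0.20 SE). In each of these genes the parent level was well above the level at which 1 count is read.

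Sema3a, a repulsive axon guidance cue, had 5 counts against 951 (ratio 120, 51.4 to 371), and Phf19, a Polycomb-like partner of the H3K27 methyltransferase, had 4 against 750 (119, 46.1 to 436). Dcn, the matrix proteoglycan decorin, had 2 counts against 620 (196, 54.1 to 1623), and Hivep2, a large zinc finger protein, had 4 against 581 (91.9, 35.7 to 338). Thsd7a fell by 6.14 ± 0.19 on the log2 scale (SE), and Serpina3h, Galnt17 and the Rab11 effector Rab11fip1 had 1 to 3 counts in TR/TO-Klf9, against 729, 332 and 309 counts in parent libraries. Serpina3h belongs to a cluster of near-identical serpin genes, so its reads may be shared.

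Nxf3, a member of the nuclear RNA export factor family on chromosome X, was the most abundant of these falls in parent cells. It had 3.26 and 1.33 CPM in TR/TO-Klf9 vehicle 1 and 2 and 1.96 CPM in the identical library, against 144, 143 and 145 CPM in parent vehicle 1, 2 and 3 (log2 −5.98 ± 0.13 SE, adjusted p = 5.19e-14). Nxf3, Gas7, Hydin, Zfhx4 and Plxna4 each overlap another annotated gene, and since the strand setting is unknown, some of their reads may be those of the gene they overlap.

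**Figure D2:**
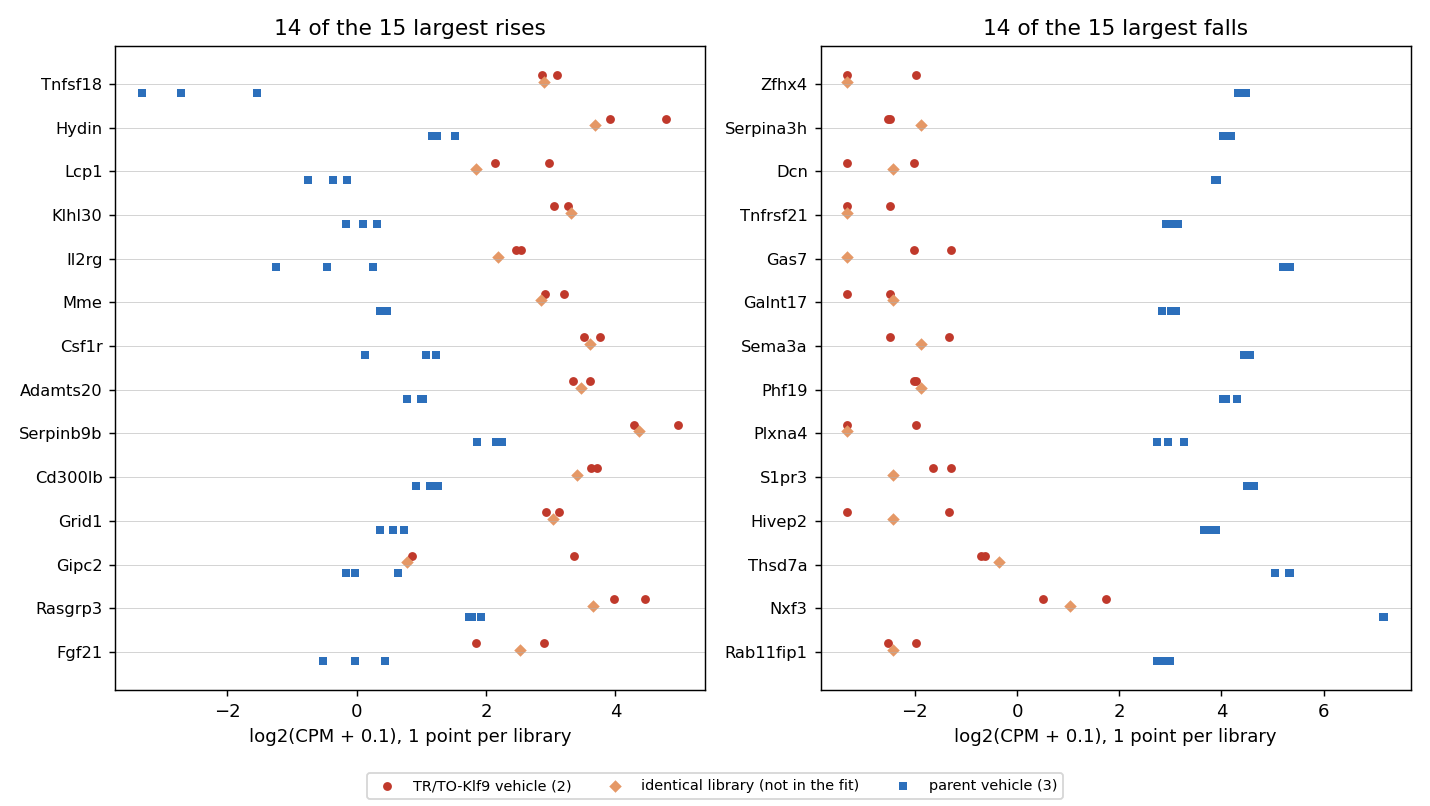
CPM by library, as log2(CPM + 0.1) on the horizontal axis, of 14 of the 15 largest rises (left) and 14 of the 15 largest falls (right) among genes at 5 CPM or more, 1 point per library: TR/TO-Klf9 vehicle in red, the identical library in orange, parent vehicle in blue. The red and blue points of the falls are far apart, while Gipc2 has 1 of its 2 red points just above the blue ones.

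The identical library, which was not in the main fit, and the doxycycline libraries gave a second look at the 2-fold genes. The doxycycline libraries hold no sample of the vehicle comparison, but they shared its fit and its estimate of the spread. The identical library lay beyond the parent vehicle range in the direction of the call for 106 of 106 rises and 195 of 195 falls at 5 CPM or more, and for 386 of all 431 rises and 404 of all 412 falls. Over all tested genes it lay above that range for 35.7% and below it for 38.7%. Between doxycycline libraries (TR/TO-Klf9 doxycycline 2 against parent doxycycline 1, 2 and 3), 2727 genes (20.1%) were called higher and 3079 (22.7%) lower in TR/TO-Klf9. Of the 106 rises 100 were called higher there and of the 195 falls 192 were called lower, while 215 of all 431 rises and 349 of all 412 falls were. With 1 TR/TO-Klf9 library under doxycycline, its spread was taken from the other groups.

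At 5 CPM or more the median difference was of similar size under both treatments. The 106 rises had a median log2 difference of 1.33 under doxycycline and 1.37 under vehicle, and the 195 falls had −1.71 under doxycycline and −1.54 under vehicle. With faint genes included, the 431 rises had a median of 1.18 under doxycycline and 1.62 under vehicle, and the 412 falls had −1.95 under both. The test of the change in line difference between treatments passed for 1291 of 13536 genes (9.54%), among them 2 of the 431 rises and 8 of the 412 falls. Across the 11049 genes at 5 CPM or more, the 2 sets of differences had a Pearson correlation of 0.857 and a Spearman correlation of 0.687, given as a description, since genes are not independent and all libraries shared 1 fit.

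**Figure D3:**
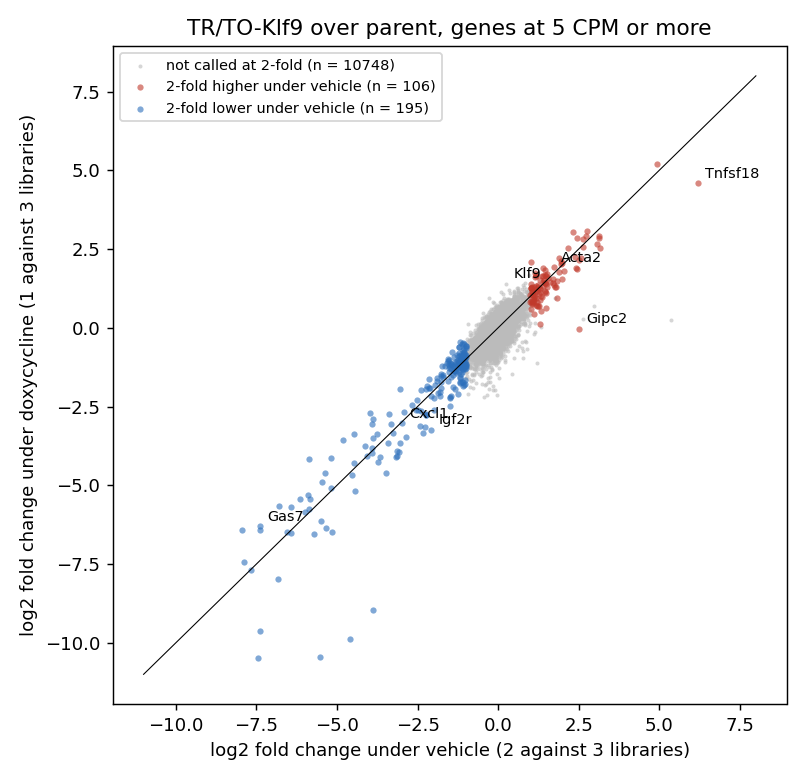
Log2 fold change of TR/TO-Klf9 over parent under doxycycline (vertical axis, 1 against 3 libraries) and under vehicle (horizontal axis, 2 against 3 libraries), 1 point per gene at 5 CPM or more, with the line of equal values. The 106 rises (red) and 195 falls (blue) lie along the line; Gipc2 sits to the right of it, near 0 under doxycycline.

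Small shifts shared by whole chromosomes made up part of the called genes and little of the 2-fold genes. The median log2 difference was −0.34 on chromosome 10, where 431 of 654 genes were called lower, and 0.34 on chromosome 16, where 314 of 423 were called higher. Chromosome 6 stood at −0.22, chromosome 15 at −0.13, chromosome 3 at 0.12 and chromosome 13 at 0.09. The others lay between −0.05 and 0.07. The identical library had medians of −0.34 on chromosome 10 and 0.33 on chromosome 16.

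Some shifts covered only a stretch of a chromosome. On chromosome 4, the 217 tested genes in order from Tmem68 to Wdr31 had a median of −0.48, and 168 of them were called lower. Chromosome X held opposite stretches, with 61 genes from Hmgn5 to Col4a6 at −0.42 and 71 genes from Pfkfb1 to G530011O06Rik at 0.35, so that its overall median of −0.02 hid both. A stretch of 54 genes on chromosome 1, from Serpinb8 to Mfsd4a, stood at 0.26.

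To look beyond these shifts, the running median over 51 neighbouring genes was taken out of the TR/TO-Klf9 libraries. Then 1931 genes (14.3%) were called higher and 2190 (16.2%) lower, and 1614 of the 2424 rises (66.6%) and 1871 of the 2850 falls (65.6%) kept their call. Of the 2-fold genes, 365 of 431 rises (84.7%) and 366 of 412 falls (88.8%) stayed called and 2-fold. Most 2-fold genes therefore also stood apart from their neighbours on the chromosome.

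**Figure D4:**
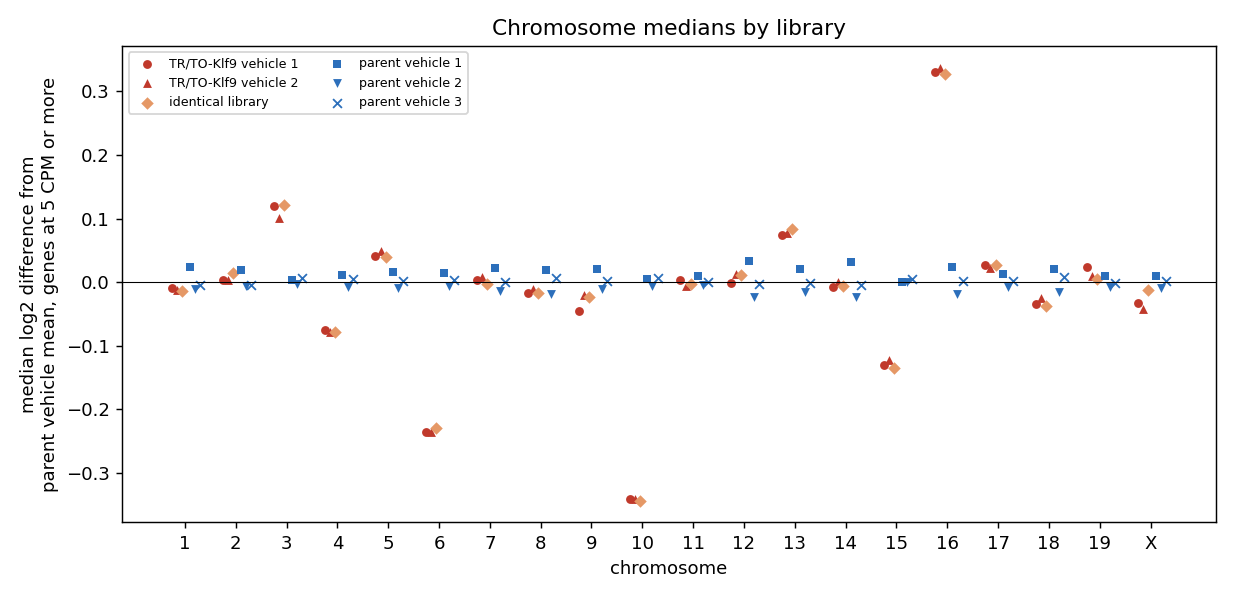
Median log2 difference from the mean of the parent vehicle libraries (vertical axis) over genes at 5 CPM or more on each chromosome (horizontal axis), 1 point per library: TR/TO-Klf9 vehicle in red, the identical library in orange, parent vehicle in blue. Red and orange points lie together, near −0.34 on chromosome 10 and near 0.33 on chromosome 16, while blue points stay close to 0 on each chromosome.

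Neighbouring genes sometimes changed together far more than the shift around them. Of 825 2-fold genes placed on chromosomes, 160 (19.4%) stood next to at least 1 tested neighbour that was 2-fold changed the same way. Of all genes tested, 3.18% were 2-fold higher and 3.04% 2-fold lower. Overlapping genes and near copies, which may share reads, were counted too, and the share for unrelated neighbours was not computed. There were 15 runs of at least 3 such genes, which held 48 genes, 5 runs higher and 10 lower. On chromosome 10, Fam13c, Phyhipl and Bicc1 stood at −3.90, −3.52 and −3.65. Bicc1, an RNA-binding protein of kidney and early development, had 1.71 and 1.62 CPM in TR/TO-Klf9 vehicle 1 and 2, against 21.5, 19.2 and 22.0 CPM in parent vehicle 1, 2 and 3.

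On chromosome 6, Abcg2 and Herc3 stood at −2.66 and −3.87, and Fam13a had 0.233 and 0 CPM in TR/TO-Klf9 vehicle 1 and 2, against 0.624, 1.09 and 0.804 CPM in parent vehicle 1, 2 and 3. Abcg2 is a multidrug efflux pump, and had 3.88 and 5.39 CPM in TR/TO-Klf9 vehicle 1 and 2, against 30.1, 32.1 and 26.5 CPM in parent vehicle 1, 2 and 3. On chromosome 19, the aldehyde dehydrogenase genes Aldh1a1 and Aldh1a7 were nearly absent from parent libraries. Aldh1a7 had 3.49 and 2.66 CPM in TR/TO-Klf9 vehicle 1 and 2, against 0.0520, 0 and 0 CPM in parent vehicle 1, 2 and 3. Aldh1a1 had 1.86 and 1.77 CPM in TR/TO-Klf9 vehicle 1 and 2 and 0 in each parent vehicle library. The 2 genes are close copies, so their reads may be shared.

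Other runs were clusters of related or nested genes. Timp3, an inhibitor of matrix metalloproteinases, lies within the gene Syn3, and both fell together: Timp3 had 6.29 and 8.42 CPM in TR/TO-Klf9 vehicle 1 and 2, against 168, 171 and 175 CPM in parent vehicle 1, 2 and 3 (−4.54 ± 0.08 SE), and Syn3 stood at −3.91 ± 0.07. Reads of the 2 genes may be shared. The same limit holds for Evi2b, Evi2 and Evi2a (−2.47, −3.38 and −3.98), which lie within Nf1, and for the related prolactin family genes Prl2c3, Prl2c2 and Prl2c5 (−2.24, −2.22 and −2.59). Of the clustered protocadherin beta genes, which encode cell surface adhesion proteins, 7 made up 2 runs, all lower, with Pcdhb16 at 5.05 and 5.61 CPM in TR/TO-Klf9 vehicle 1 and 2, against 20.01, 22.5 and 20.6 CPM in parent vehicle 1, 2 and 3.

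Among the 31 gene lists, the NF-kB pathway had the largest share of members called lower. The lists were chosen with earlier results of these data known, so this rank is a description only. NF-kB factors sit in the cytoplasm bound to inhibitors of the I-kB family until signals such as TNF release them, and they then switch on inflammatory genes together with their own inhibitors. Of 21 tested genes of the pathway and its targets, 16 were lower and 1 higher in TR/TO-Klf9, with a median of −0.40, against 21.1% lower, 17.9% higher and a median of 0.00 for all genes tested. With the running median of neighbours removed the counts were again 16 and 1, and without TR/TO-Klf9 vehicle 1 they were 15 and 1.

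The inhibitors and the factors themselves were both lower. The inhibitor Nfkbie had 14.7 and 19.5 CPM in TR/TO-Klf9 vehicle 1 and 2 and 19.5 CPM in the identical library, against 47.6, 42.2 and 46.2 CPM in parent vehicle 1, 2 and 3 (−1.41 ± 0.10 SE). Bcl3, an atypical I-kB protein, stood at −1.76 ± 0.15, the ubiquitin-editing inhibitor Tnfaip3 (A20) at −1.10 ± 0.08, and the factor Relb, picked after its value was seen, at −1.01 ± 0.07. Nfkb1, Nfkb2 and Rel were lower by 0.20, 0.26 and 0.62, while Rela, at −0.03 ± 0.04, did not pass. Nfkbib, another I-kB gene, was the 1 member that was higher (0.32 ± 0.08).

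The receptor and cytokine genes followed in part. Il1rl1, the receptor of interleukin 33, had 27.5 and 15.6 CPM in TR/TO-Klf9 vehicle 1 and 2 and 15.8 CPM in the identical library, against 149.8, 157 and 159.8 CPM in parent vehicle 1, 2 and 3 (−2.86 ± 0.17 SE). Among 11 tested chemokines 5 were lower and 2 higher, with a median of 0.03, while without TR/TO-Klf9 vehicle 1 the counts were 5 and 1 and the median was −0.28. Cxcl1, which attracts neutrophils, had 6.91 and 7.01 CPM in TR/TO-Klf9 vehicle 1 and 2 and 6.65 CPM in the identical library, against 52.1, 58.7 and 53.9 CPM in parent vehicle 1, 2 and 3 (−2.97 ± 0.09 SE). Cxcl5 stood at −2.52 ± 0.11, and the monocyte chemokines Ccl2 and Ccl7 at −1.77 ± 0.08 and −1.34 ± 0.10. Ccl9 went the other way, at 0.86 ± 0.10. Interferon response and antigen presentation genes did not share the fall, with 4 higher and 3 lower of 23 and a median of 0.16, or 3 and 1 with the running median removed and 2 and 2 without TR/TO-Klf9 vehicle 1.

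The promoters of 4 of these lower genes are shown because each holds a match to the NF-kB consensus, in capitals, within the 250 bases before the annotated start. They come from RefSeq (GRCm38.p6), read 5′ to 3′ along the strand of the gene, and are those of Cxcl1 (chr5:90890995-90891244, plus strand), Nfkbie (chr17:45555450-45555699, plus), Tnfaip3 (chr10:19015411-19015660, minus) and Nfkbia (chr12:55492648-55492897, minus), the last a main I-kB gene picked after its value was seen (−0.93 ± 0.06 SE).
Cxcl1: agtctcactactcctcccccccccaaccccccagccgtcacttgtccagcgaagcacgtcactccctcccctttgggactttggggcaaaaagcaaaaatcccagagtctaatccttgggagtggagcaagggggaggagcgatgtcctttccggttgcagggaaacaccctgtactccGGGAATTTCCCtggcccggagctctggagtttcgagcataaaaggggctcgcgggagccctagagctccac
Nfkbie: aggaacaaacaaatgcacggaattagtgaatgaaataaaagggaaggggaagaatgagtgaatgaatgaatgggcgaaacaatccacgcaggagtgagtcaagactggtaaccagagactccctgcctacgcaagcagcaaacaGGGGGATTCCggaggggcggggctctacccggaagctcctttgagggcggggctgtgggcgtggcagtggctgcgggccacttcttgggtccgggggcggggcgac
Tnfaip3: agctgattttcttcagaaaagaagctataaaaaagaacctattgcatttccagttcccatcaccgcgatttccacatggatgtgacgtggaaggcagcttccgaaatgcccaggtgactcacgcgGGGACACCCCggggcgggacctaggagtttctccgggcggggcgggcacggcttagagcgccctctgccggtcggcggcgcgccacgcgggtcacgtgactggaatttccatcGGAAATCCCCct
Nfkbia: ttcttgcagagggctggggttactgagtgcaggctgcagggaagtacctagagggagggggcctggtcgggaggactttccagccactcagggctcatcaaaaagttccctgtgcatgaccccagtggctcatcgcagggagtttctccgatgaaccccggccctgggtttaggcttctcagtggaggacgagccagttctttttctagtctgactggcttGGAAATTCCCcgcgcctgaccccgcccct

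In Cxcl1 the stretch GGGAATTTCCC spans 71 to 61 bases before the start and matches on both strands. The matches lie 106 to 97 bases before the start in Nfkbie, 125 to 116 and 12 to 3 bases before it in Tnfaip3, and 29 to 20 bases before it in Nfkbia. Of the 21 tested list members, 17 had a promoter of 300 bases in the table and 10 of these (58.8%) held the consensus on either strand, against 8.19% of 27025 promoters of the same length. Of the 16 lower members 12 had a promoter, and 9 of these held the consensus. Of the 5 that were not lower, among them Nfkbib, which was higher, 1 held it (Csf1, at −0.02). These 5 genes are too few for a contrast with the lower ones, and none is drawn. The list was drawn up from known NF-kB targets, so a high share of matches comes with the choice. A match is a description of the letters and says nothing of binding in these cells.

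**Figure D5:**
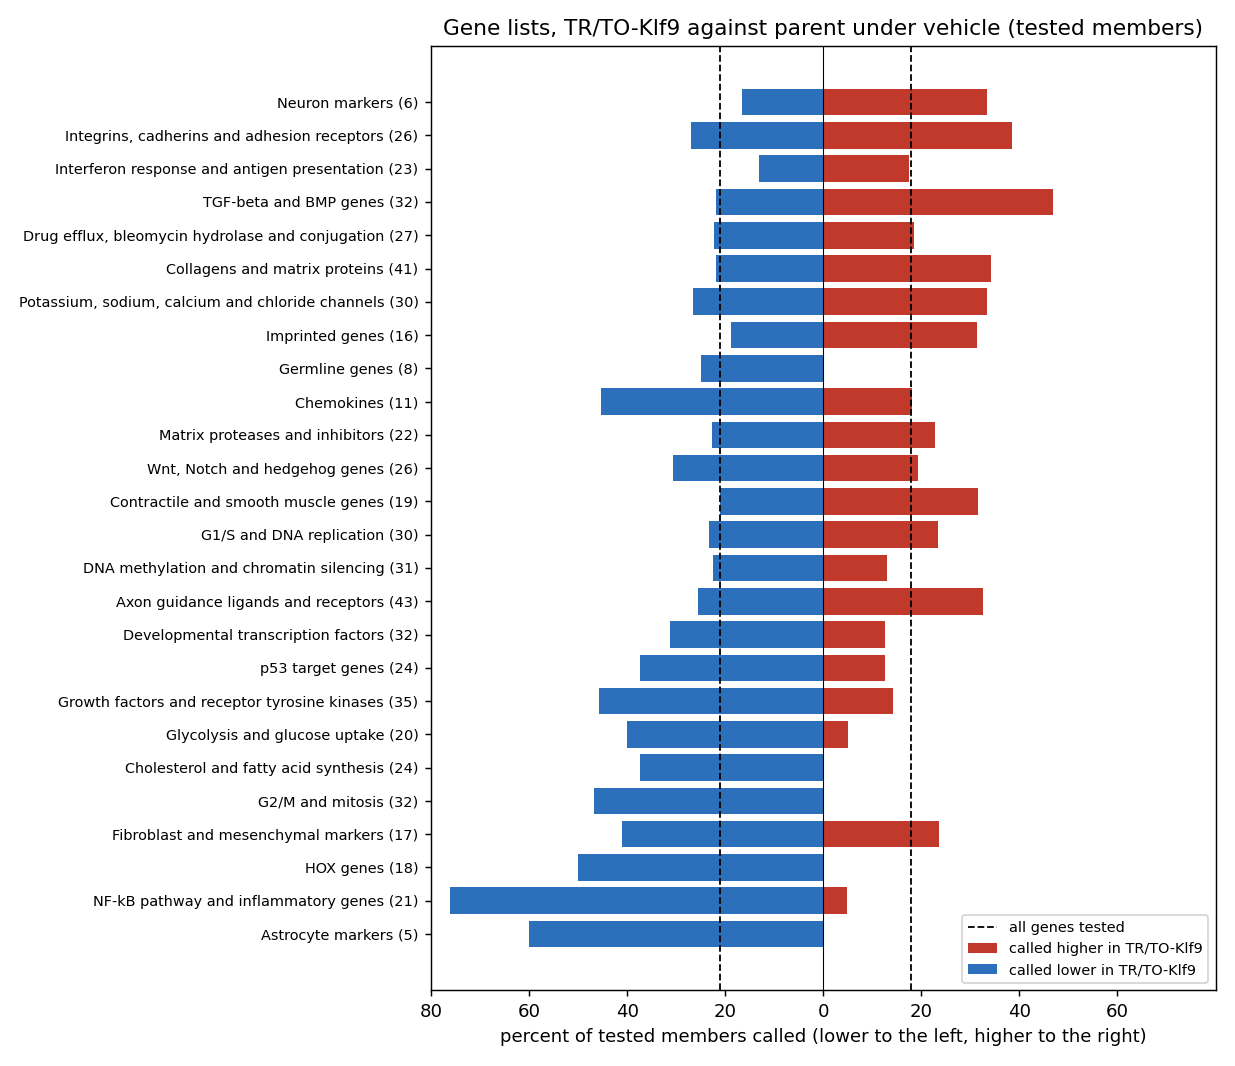
Percent of the tested members of each gene list called lower (blue, to the left) or higher (red, to the right) in TR/TO-Klf9 against parent under vehicle, with the number tested in parentheses and the shares of all genes tested as dashed lines (21.1% lower, 17.9% higher). Lists are ordered by median log2 difference and those with fewer than 5 tested members are left out; NF-kB pathway genes have the longest bar, 16 of 21 lower.

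Cytoskeletal and mesenchymal genes moved in both directions. Acta2, smooth muscle alpha actin, had 125 and 123 CPM in TR/TO-Klf9 vehicle 1 and 2 and 129 CPM in the identical library, against 36.1, 37.8 and 38.5 CPM in parent vehicle 1, 2 and 3 (1.73 ± 0.06 SE, adjusted p = 2.55e-12). It did not represent its group: of 19 contractile and smooth muscle genes 6 were higher and 4 lower, with a median of 0.00 (6 and 3 without TR/TO-Klf9 vehicle 1), and Smtn and Cald1 were lower at −0.47 ± 0.08 and −0.43 ± 0.08. With the running median removed, 4 were higher and 1 lower, and Cald1 no longer passed (−0.19, adjusted p = 0.0847). Of 17 fibroblast and mesenchymal markers 4 were higher and 7 lower (median −0.17), or 5 and 5 without TR/TO-Klf9 vehicle 1. The platelet-derived growth factor receptors parted, Pdgfrb at 0.81 ± 0.08 and Pdgfra at −0.97 ± 0.07, and the matrix protein periostin, Postn, stood at 1.35 ± 0.09.

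Matrix and adhesion genes also moved in both directions. Of 41 collagens and matrix proteins 14 were higher and 9 lower (median 0.09), against 18 and 6 with the running median removed and 14 and 7 without TR/TO-Klf9 vehicle 1. Thbs1, the adhesive glycoprotein thrombospondin 1, had 453 and 493 CPM in TR/TO-Klf9 vehicle 1 and 2, against 159.9, 176 and 188 CPM in parent vehicle 1, 2 and 3 (1.44 ± 0.08 SE). The chains of type V collagen differed in direction: Col5a2 stood at 0.77 ± 0.08, while Col5a3 had 2.10 and 0.960 CPM in TR/TO-Klf9 vehicle 1 and 2, against 34.9, 30.8 and 33.6 CPM in parent vehicle 1, 2 and 3 (−4.45 ± 0.18 SE). The basement membrane linker nidogen 1, Nid1, was lower (−0.72 ± 0.10 SE).

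Of 22 matrix proteases and inhibitors 5 were higher and 5 lower (22.7% each), near the 17.9% and 21.1% of all genes tested. Without TR/TO-Klf9 vehicle 1 the counts were 6 and 5. Adamts5 and Adamts1, which cleave proteoglycans and are neighbours on chromosome 16, stood at 1.30 ± 0.08 and 0.80 ± 0.05, and at 1.06 and 0.54 with the running median removed. Of 26 integrins, cadherins and adhesion receptors 10 were higher and 7 lower (median 0.20), and without TR/TO-Klf9 vehicle 1 the counts were 7 and 6 of 24. The neural cell adhesion molecule Ncam1 had 286 and 335 CPM in TR/TO-Klf9 vehicle 1 and 2 and 315 CPM in the identical library, against 116, 119 and 116 CPM in parent vehicle 1, 2 and 3 (1.41 ± 0.06 SE). Itgb5 stood at 1.04 ± 0.06 and Itga6 at −0.74 ± 0.08. Cdh1, the epithelial cadherin, stood at 0.76 ± 0.21, and at 0.47 (adjusted p = 0.121) without TR/TO-Klf9 vehicle 1.

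Growth factors and their receptors moved in both directions. Of 35 tested growth factors and receptor tyrosine kinases 16 were lower and 5 higher (median −0.10), and 14 and 5 without TR/TO-Klf9 vehicle 1. Pdgfb, the B chain of platelet-derived growth factor, had 0.466 and 0.148 CPM in TR/TO-Klf9 vehicle 1 and 2 and 0 in the identical library, against 15.2, 13.8 and 13.8 CPM in parent vehicle 1, 2 and 3 (−5.52 ± 0.25 SE). The Wnt receptor Ror1 stood at −4.13 ± 0.18 and the neuregulin receptor Erbb3 at −3.13 ± 0.19. Among the 5 that were higher, the insulin-like growth factor gene Igf1 had 12.2 and 17.9 CPM in TR/TO-Klf9 vehicle 1 and 2 and 21.1 CPM in the identical library, against 3.53, 1.88 and 3.14 CPM in parent vehicle 1, 2 and 3 (2.33 ± 0.25 SE). Fgf21, given above, Igfbp7, which binds such factors (1.46 ± 0.07), and Vegfd, a lymphatic growth factor (0.85 ± 0.06), were higher too. In the TGF-beta and BMP list 15 of 32 were higher and 7 lower (median 0.15), or 10 and 7 with the running median removed and 13 and 5 of 30 without TR/TO-Klf9 vehicle 1. The inhibitory SMAD gene Smad6 stood at 0.80 ± 0.12, the activin-binding protein Fst at −0.95 ± 0.19 and the inhibitor of differentiation Id4 at −1.86 ± 0.25. Of 26 Wnt, Notch and hedgehog genes 5 were higher and 8 lower (6 and 7 of 25 without TR/TO-Klf9 vehicle 1), with Notch4 at −1.71 ± 0.15 and Wnt9a at 0.99 ± 0.14.

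Markers of neurons, the labelled cell type, were sparse in both lines. Of 20 markers 6 passed the filter on low counts and Gad1 had 0 counts in all 5 libraries. The list summed to 201 and 179 CPM in TR/TO-Klf9 vehicle 1 and 2 and 178 CPM in the identical library, against 181, 196 and 186 CPM in parent vehicle 1, 2 and 3, most of it from Syn1, a synapsin gene (169.7 and 154 CPM in TR/TO-Klf9, against 140.0, 156 and 147 CPM in parent). Of the 6, 2 were higher and 1 lower (median 0.71), against 1 and 1 of 5 (median 0.40) without TR/TO-Klf9 vehicle 1. Tubb3, neuronal beta tubulin, had 14.0 and 13.7 CPM in TR/TO-Klf9 vehicle 1 and 2, against 31.3, 31.7 and 32.4 CPM in parent vehicle 1, 2 and 3 (−1.20 ± 0.09 SE). Elavl3, a neuronal RNA-binding protein, had 3.18 and 2.73 CPM in TR/TO-Klf9 vehicle 1 and 2 and 1.96 CPM in the identical library, against 1.77, 1.19 and 1.45 CPM in parent vehicle 1, 2 and 3 (0.95 ± 0.25 SE), and was at 0.84 (adjusted p = 0.0313) without TR/TO-Klf9 vehicle 1. Eno2, neuronal enolase, stood at 0.66 ± 0.19, and at 0.49 (adjusted p = 0.0923) without TR/TO-Klf9 vehicle 1. Of 5 astrocyte markers 3 were lower (3 of 4 without TR/TO-Klf9 vehicle 1), namely Sox9 (−0.85 ± 0.08), Gja1 (−0.78 ± 0.09) and Slc1a3 (−0.54 ± 0.09), and Aqp4 had 0 counts in all 5 libraries. The astrocyte list summed to 218 and 271 CPM in TR/TO-Klf9 vehicle 1 and 2, against 403, 439 and 415 CPM in parent vehicle 1, 2 and 3. Of 43 axon guidance genes 14 were higher and 11 lower (16 and 9 of 39 without TR/TO-Klf9 vehicle 1), with the semaphorin receptor Nrp1 at 0.83 ± 0.06 and Sema6c at 0.84 ± 0.17 beside the near-silent Sema3a and Plxna4.

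The other cell type lists rested on few genes. Of 3 epithelial, 3 oligodendrocyte and 4 endothelial markers tested, 3, 2 and 2 were higher and 0, 1 and 0 lower, and without TR/TO-Klf9 vehicle 1 the numbers higher were 1, 1 and 1. The epithelial list summed to 11.3 and 6.57 CPM in TR/TO-Klf9 vehicle 1 and 2, against 4.52, 3.67 and 4.99 CPM in parent vehicle 1, 2 and 3, and Epcam had 0 counts in all 5 libraries.

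Body-plan and developmental regulators had more members lower than higher. Of 18 tested HOX genes 9 were lower and 0 higher (median −0.28), but the 6 Hoxa genes among them lie on chromosome 6, and with the running median removed 2 of the 18 HOX genes were lower and 1 higher, against 16.2% and 14.3% of all genes. Without TR/TO-Klf9 vehicle 1 the HOX counts were 7 and 0. Hoxc6, on chromosome 15, had 12.5 and 14.99 CPM in TR/TO-Klf9 vehicle 1 and 2, against 22.7, 21.2 and 22.2 CPM in parent vehicle 1, 2 and 3 (−0.68 ± 0.10 SE), and stayed at −0.59. Hoxa6 and Hoxa2 stood at −0.73 and −0.71, and at −0.35 and −0.31, neither past the threshold, with the running median removed. Of 32 other developmental transcription factors 10 were lower and 4 higher. Without TR/TO-Klf9 vehicle 1 they were 6 and 3 of 31, so that 19.4% were lower, against 18.1% of all genes. Lhx9 stood at −1.05 ± 0.15, Tbx3 at −0.62 ± 0.08 and Runx1 at −0.42 ± 0.05, the last on chromosome 16, where it stood at −0.78 relative to its neighbours.

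Imprinted genes and silencing factors were listed because both concern the switching off of single genes. Of 16 imprinted genes 5 were higher and 3 lower, or 2 and 3 of 14 without TR/TO-Klf9 vehicle 1. Igf2r, the receptor that clears insulin-like growth factor 2, had 5.36 and 4.65 CPM in TR/TO-Klf9 vehicle 1 and 2, against 23.9, 17.8 and 20.8 CPM in parent vehicle 1, 2 and 3 (−2.08 ± 0.14 SE), and Peg3 stood at −0.36 ± 0.10. Of 31 genes for DNA methylation and chromatin silencing, all tested, 4 were higher (12.9%) and 7 lower (22.6%), with a median of −0.01. The shares of all genes tested were 17.9% and 21.1%. The list's counts were 3 and 4 with the running median removed and 5 and 5 without TR/TO-Klf9 vehicle 1. Phf19 was near silent, as given above, while the DNA methyltransferases Dnmt3b and Dnmt3a stood at 0.40 ± 0.12 and 0.33 ± 0.08. Of 8 germline genes 2 were lower and 0 higher, or 1 and 0 of 7 without TR/TO-Klf9 vehicle 1, and of 4 genes of the sex chromosomes 1 was higher, with and without that library, the histone demethylase Kdm5c (0.33 ± 0.05), which stood at −0.02 relative to its neighbours on chromosome X.

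Genes that handle drugs moved in both directions, at shares near those of all genes tested (17.9% higher and 21.1% lower). Of 27 tested genes for drug efflux, bleomycin hydrolysis and conjugation 5 were higher (18.5%) and 6 lower (22.2%), with a median of 0.11. Without TR/TO-Klf9 vehicle 1 the counts were 5 (19.2%) and 8 (30.8%) of 26, with a median of −0.10. All genes then stood at 16.1% higher and 18.1% lower. Cyp1b1, a cytochrome P450, had 60.3 and 70.8 CPM in TR/TO-Klf9 vehicle 1 and 2, against 24.4, 20.3 and 24.1 CPM in parent vehicle 1, 2 and 3 (1.502 ± 0.09 SE), and the efflux pump Abcg2 was lower (−2.66 ± 0.14 SE). Blmh, the hydrolase of bleomycin, the family to which zeocin belongs, was higher by 0.38 ± 0.05; it was picked for this role. Ion channel genes likewise moved both ways, 10 higher and 8 lower of 30, or 8 and 9 without TR/TO-Klf9 vehicle 1. The L-type calcium channel subunit Cacna1c had 0.155 and 0.148 CPM in TR/TO-Klf9 vehicle 1 and 2, against 7.12, 7.93 and 6.35 CPM in parent vehicle 1, 2 and 3, with 4 counts against 296 (ratio 46.8, 18.1 to 173), and the potassium channel subunit Kcnd1 stood at 1.16 ± 0.21.

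Growth and metabolism differed by less. Of 32 G2/M and mitosis genes 15 were lower and 0 higher (median −0.17), and without TR/TO-Klf9 vehicle 1 the counts were 10 and 0 and the median −0.07. Kif23, a kinesin of cytokinesis, had 131 and 143 CPM in TR/TO-Klf9 vehicle 1 and 2, against 174, 171 and 174 CPM in parent vehicle 1, 2 and 3 (−0.34 ± 0.05 SE). Cdk1, on chromosome 10, stood at −0.34 ± 0.06, and at −0.03 relative to its neighbours. Cenpe stood at −0.29 ± 0.07, and at −0.12 (adjusted p = 0.138) without TR/TO-Klf9 vehicle 1. Genes of G1/S and DNA replication were divided, 7 higher and 7 lower of 30 (23.3% each), near the 17.9% and 21.1% of all genes tested. The counts were 4 and 4 with the running median removed, and 7 and 6 without TR/TO-Klf9 vehicle 1. Ccnd1, cyclin D1, stood at −0.60 ± 0.10 and the retinoblastoma gene Rb1 at 0.45 ± 0.07.

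Of 24 p53 target genes 9 were lower (37.5%) and 3 higher (12.5%), against 21.1% and 17.9% of all genes tested. With the running median removed 5 were lower and 4 higher, where all genes stood at 16.2% and 14.3%. The median was −0.09, and −0.14 without TR/TO-Klf9 vehicle 1. The cell cycle inhibitor Cdkn1a (p21) stood at 0.43 ± 0.07. In glycolysis and glucose uptake 8 of 20 were lower (40%) and 1 higher (5%), with a median of −0.11 (−0.12 without TR/TO-Klf9 vehicle 1). With the running median removed 6 were lower and 2 higher, and the median was −0.06. Pfkl stood at −0.74 ± 0.06, Hk2 at −0.72 ± 0.06 and Pdk1 at −0.69 ± 0.10. Relative to their neighbours these stood at −0.38, −0.48 and −0.70. In cholesterol and fatty acid synthesis 9 of 24 were lower (37.5%) and 0 higher, or 8 and 0 with the running median removed. The median was −0.15, and −0.13 without TR/TO-Klf9 vehicle 1. The fatty acid elongase Elovl6 stood at −0.47 ± 0.06 and the synthase Fasn at −0.34 ± 0.09. Fasn did not pass without TR/TO-Klf9 vehicle 1 (−0.27, adjusted p = 0.0644).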

How the data were processed

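The authors deposited 1 table of counts for 11 samples, with a row per RefSeq transcript, which its values show to be unscaled. Per the submitters' processing notes, the build was mm8 and the tools were Bowtie, CASAVA, DESeq and FastQC; for the counting program and strand setting, the answer is "not given in the sources used here". Per the labels' protocols, treatment began 24 hours after plating and libraries were oligo-dT primed. Sample columns left unused numbered 0.

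Of 33815 rows (32923 accessions), 32500 accessions matched a symbol in a RefSeq GRCm38 table, used for names, chromosome and gene order; 423 did not and held 1.17% to 1.23% of counts. The row with the highest mean count stood for each of 24143 genes. Groups follow the sample titles. The members and gene lists (31 lists) were chosen with earlier results of these data known.

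Genes were kept by filterByExpr. edgeR 4.0.16 (TMM, robust glmQLFit, glmQLFTest; R 4.3.3) was fitted to 9 libraries in 4 groups, leaving 5 residual degrees of freedom, and p-values were Benjamini-Hochberg adjusted over 13536 genes. The common dispersion of 0.00229 equals a 4.78% coefficient of variation between libraries. Each SE was derived from the fold change and the F statistic. Calls have an adjusted p of at most 0.05. Genes named are Gas7, Cxcl1, Acta2 and Klf9, the 15 largest rises and 15 largest falls past the threshold with 5 CPM or more, separate groups and no clone name, and up to 4 called members per list with 5 CPM or more; members of neighbour runs, other list members and genes said to be picked stand outside this rule and were chosen after their values were seen. Some genes that the rule names are not reported here. Counting intervals are exact binomial at 95% and cover counting error only. The test was tried on simulated data for the comparison of lines under vehicle, with 200 of 13536 genes changed. It found 95.5% of those changed 1.5-fold, 100% of those changed 2-fold and 100% of those changed 4-fold. It also made 23 false calls, a larger share of its calls than the threshold of 0.05 aims at. The changed genes were drawn from those with a mean of 5 CPM or more, and no simulated library stood apart. Recovery of fainter genes and the effect of a library such as TR/TO-Klf9 vehicle 1 were therefore not tested.

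Alternatives were limma-voom 3.58.1 and DESeq2 1.42.0, scaling by RLE, a stricter filter (1 CPM in 5 libraries) or none, a block for the replicate number, a fit of the 2 groups alone, the identical library as vehicle 3, summed rows, removal of chromosome medians or of a running median over 51 genes, removal of a loess length trend (span 0.4, lengths for 97.9% of genes), and each library left out. List counts without TR/TO-Klf9 vehicle 1 were chosen after seeing the data. Tables and figures were made in Python 3.11.15 (matplotlib 3.10.9, numpy 2.4.6, pandas 2.3.3, scipy 1.17.1).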

Additional observations from a re-analysis of the deposited data

Results flagged for a closer look

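For 5 of the named genes the line difference under doxycycline departed from that under vehicle, by the interaction test of edgeR with Benjamini-Hochberg adjustment, in which the spread of the 1 TR/TO-Klf9 doxycycline library was taken from the other groups. Klf9 differed by 1.16 (log2, adjusted p = 1.03e-05): it had 102 CPM in TR/TO-Klf9 doxycycline 2 and 48.4 and 43.8 CPM in TR/TO-Klf9 vehicle 1 and 2. Igf2r differed by −1.16 (adjusted p = 0.0269), with 2.16 CPM in TR/TO-Klf9 doxycycline 2, 2.81 CPM in the identical library and 5.36 and 4.65 CPM in TR/TO-Klf9 vehicle 1 and 2. Kcnq1ot1, an imprinted antisense RNA that overlaps Kcnq1, differed by −0.97 (adjusted p = 0.0160), with 92.2 CPM in TR/TO-Klf9 doxycycline 2, 133 CPM in the identical library and 193 and 143 CPM in TR/TO-Klf9 vehicle 1 and 2. Cdk6 differed by −0.54 (adjusted p = 0.0248) and the proteoglycan gene Cspg4 by −0.49 (adjusted p = 0.0130), with 25.7 and 254 CPM in TR/TO-Klf9 doxycycline 2. These 4 genes besides Klf9 have long transcripts, of 8121 nt (Cspg4), 8887 nt (Igf2r), 11525 nt (Cdk6) and 93092 nt (Kcnq1ot1), and none passed once the trend of the differences with transcript length was removed: the values were then −0.88 for Igf2r (adjusted p = 0.105), −0.23 for Kcnq1ot1 (0.451), −0.19 for Cdk6 (0.414) and −0.23 for Cspg4 (0.199), while Klf9 stood at 1.24 (6.77e-06). Igf2r also did not pass with the replicate number as a block (−1.07, adjusted p = 0.0648) or with the identical library as vehicle 3 (−0.95, adjusted p = 0.121), nor did Kcnq1ot1 with the identical library as vehicle 3 (−0.87, adjusted p = 0.0616).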

How the results depend on the processing

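The count of genes called between the lines stayed within 1.5 times of 5274 in each alternative run; DESeq2 gave 1787 higher and 2063 lower, and limma-voom 2362 and 2863. The 843 2-fold genes became 527, and the 431 2-fold rises 204, with the stricter filter, which tests fewer faint genes. Leaving out each library in turn gave 4187 to 6083 called genes (1846 to 2962 higher, 2341 to 3121 lower) and 679 to 1053 2-fold genes, with 269 to 616 rises, lowest without TR/TO-Klf9 vehicle 1, and 350 to 437 falls. The 1291 genes whose line difference changed with treatment became 560 with the replicate number as a block, 684 with the length trend removed and 716 with DESeq2; the cause was not tested. The block gave 2165 higher and 2501 lower between the lines. Deviations of same-numbered vehicle libraries of the 2 lines correlated at −0.03 and −0.04. The deviations of 2 TR/TO-Klf9 libraries mirror each other, so these values cannot tell whether same-numbered samples were handled together. Of the named genes' values under alternatives, 2087 kept direction and call, 83 lost the call and 3 reversed: Stat2 to 0.00176 and 0.065 with chromosome or running medians removed, and Kdm5c to −0.016 with running medians removed. With 2 TR/TO-Klf9 libraries and 1 count worth 0.0738 to 0.0777 CPM in them, levels under 1 CPM are poorly set.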

Other observations

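The 7 genes high in TR/TO-Klf9 vehicle 1 alone were Hspa1b, P2rx7, Htatip2, Gipc2, Sstr5, Slc1a2 and Hspa1a. Besides Hspa1b and P2rx7, given above, Htatip2 had 15.1 CPM in TR/TO-Klf9 vehicle 1, against 1.18 CPM in TR/TO-Klf9 vehicle 2, 0.938 CPM in the identical library and a mean of 1.00 CPM in parent vehicle libraries. The somatostatin receptor gene Sstr5 had 8.15 CPM there and at most 0.104 CPM elsewhere, and the glutamate transporter gene Slc1a2, an astrocyte marker, had 6.29 CPM there and at most 0.597 CPM elsewhere. The chaperone gene Hspa1a, a near-identical copy of Hspa1b, had 5.82 CPM there and at most 0.456 CPM elsewhere. Except for Gipc2, these genes did not pass between the lines, since TR/TO-Klf9 vehicle 2 lay close to the parent libraries.

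Among losses outside the lists, Rnf113a2 had 0.155 and 0.295 CPM in TR/TO-Klf9 vehicle 1 and 2, against 5.35, 5.55 and 4.74 CPM in parent vehicle 1, 2 and 3, in a run with Entpd5 (−1.003) and Bbof1 (−1.08) on chromosome 12. Aspa, which hydrolyses N-acetylaspartate, had 19.1 and 18.5 CPM in TR/TO-Klf9 vehicle 1 and 2, against 5.14, 5.65 and 4.50 CPM in parent vehicle 1, 2 and 3, in a run with Trpv3 (1.73) and Ccdc92b (1.77) on chromosome 11. Both runs were named after their values were seen.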
